A study of Acorus calamus with 8 samples.

Results

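The genes described here are those of chlorophyll and carotenoid synthesis in sweet flag, Acorus calamus, a wetland herb with a creeping rhizome. They were taken as the assembled features whose SwissProt description held any of 16 search strings for enzymes of these routes, and 51 of the 24636 features met the rule. The libraries were made from rhizome and leaf of explants whose leaves had been cut back (cut) or left at full height (uncut), a month and 4 days after the cutting, with 1 library for each of the 8 combinations and no replicates. All explants stood on Murashige and Skoog medium that held a pair of synthetic auxins, 2,4-D at 2 mg/l and NAA at 0.5 mg/l. The sources used here do not give how many plants went into a library. RNA was taken by oligo dT selection or by rRNA depletion, and the labels do not tell which of these a given library had.

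Chlorophyll and heme share the first part of tetrapyrrole synthesis, from glutamyl-tRNA to protoporphyrin, and part at the insertion of magnesium or iron. A short side route leads to siroheme, the cofactor of sulfite and nitrite reductases. Carotenoids are built from geranylgeranyl diphosphate, which also gives the phytol tail of chlorophyll, and the xanthophylls at the end of the route serve light harvesting, photoprotection and, through their cleavage, abscisic acid synthesis.

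By role, 9 of the 51 features belonged to the early tetrapyrrole steps, 2 to the siroheme branch, 12 to the magnesium branch, 3 to chlorophyll breakdown and 22 to carotenoid synthesis. Another 2 were annotated as beta-carotene isomerase D27 of the strigolactone route, and 1 as PTC52, a protein of the chloroplast envelope named for its link to protochlorophyllide in barley. Their lengths ran between 201 and 3928 bases, so several are fragments, and a step can be covered by more than 1 feature. Counts were obtained in all 8 libraries for 23 of the 51. After the filter on low counts 38 of the 51 were tested, each with at least 36 counts over the 8 libraries, while the 13 others held between 1 and 42.

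Library totals lay between 6876377 and 12541185 counts, of which 89.43 to 97.87% fell on ribosomal RNA features in the 4 rhizome libraries and 74.98 to 82.29% in the 4 leaf libraries, without overlap. The part of this difference in the comparison of the tissues was not tested. The nuclear features that hold these enzymes had between 121728 counts (uncut rhizome, 4 days) and 1695474 counts (uncut leaf, a month). In uncut rhizome at 4 days 26 of the 51 features were at 0 and 3 reached 10 counts, and a single count there equals 0.47 on the scaled levels used below. A scaled level is a CPM value on the TMM-scaled library size, as edgeR scales it, and it compares 1 feature between libraries. Between features only FPKM, the authors' value per kilobase, is compared. Since no combination has a replicate, p-values here measure the spread between these 8 libraries.

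Per length, magnesium-protoporphyrin IX monomethyl ester cyclase (Unigene6002) was the most abundant of the 51 features in leaf, at 39.5 FPKM on average over the 4 leaf libraries (range 16.24 to 54.15). Phytoene synthase Unigene9190 followed with 24.5 FPKM (range 7.9 to 52.81), beta-carotene hydroxylase Unigene8170 with 18.2 (range 1.73 to 38.04) and geranylgeranyl reductase Unigene8244 with 17.5 (range 5.52 to 42.57). These ranges overlap, so the order of these 4 features is not fixed beyond their spread. In rhizome the cyclase averaged 3.99 FPKM (range 0.49 to 10.16) and phytoene synthase Unigene9190 averaged 3.04 FPKM (range 0.08 to 4.66).

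**Figure D1:**
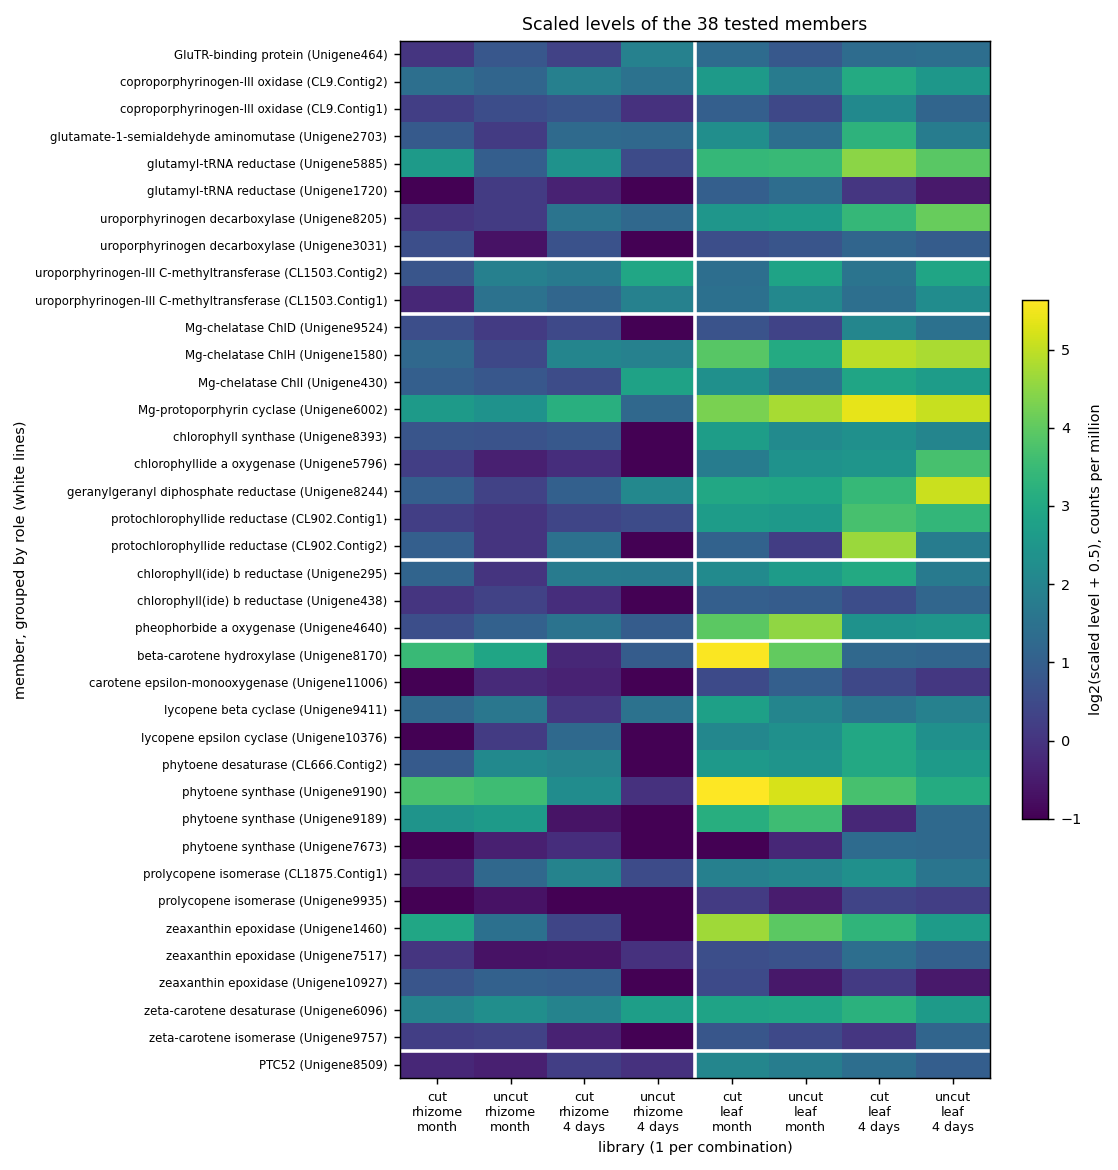
Scaled level of each of the 38 tested features (rows, grouped by role from the early tetrapyrrole steps at the top to PTC52 at the bottom) in each of the 8 libraries (columns), as log2(scaled level + 0.5) in CPM. The 4 rhizome libraries on the left are darker than the 4 leaf libraries on the right for most rows, and uncut rhizome at 4 days holds 16 of these features at 0.

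The first comparison asks how the pigment genes differ between rhizome and leaf. Of the 38 tested features 15 were lower in rhizome and none was higher. At an unadjusted p under 0.05 were 28 of the 38 and 2786 of the 11682 features tested. Over all 11682 features tested, 9.0% were called, 6.93% lower and 2.07% higher in rhizome (809 and 242 features, against 742 and 431 with an offset for each library's trend with feature length and 2503 and 79 on log2(FPKM + 1)). The median of the 38 log2 ratios of rhizome over leaf was -1.77, against -0.14 over all features tested. In 30 of the 38 the rhizome library lay below its leaf partner in all 4 pairs (21.4% of all features tested), and in 17 the rhizome and leaf values did not overlap at all (9.58%). Together the 51 features took 0.0990 to 0.121% of the nuclear counts in rhizome, against 0.367 to 0.434% in leaf. The feature Unigene19161, a hypothetical protein, alone held 25.4 to 42.4% of the nuclear counts in rhizome and 13.2 to 31.5% in leaf, and without it the shares were 0.158 to 0.177% in rhizome and 0.472 to 0.634% in leaf. In bulk tissue fewer green cells and less RNA per cell cannot be told apart.

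Leaf markers separated the labelled tissues. The 36 marker features of leaf mesophyll (light-harvesting proteins, the Rubisco small subunit and Rubisco activase) held 0.0642 to 0.306% of nuclear counts in rhizome and 1.89 to 6.94% in leaf. Of the 31 tested, 26 were lower in rhizome, with a median log2 ratio of -4.12. Between 22 and 30 of the 36 had counts in each rhizome library, and 5 of the 28 light-harvesting features were at 0 in all 4 of them, while none of the 5 small subunit and 3 activase features was. The part of this marker difference in the lower pigment genes was not tested. Of the lists for other cell types, storage markers held 0.297 to 0.628% of nuclear counts in rhizome and 0.139 to 0.454% in leaf (4 higher and 2 lower in rhizome of 32 tested), meristem markers 0.0397 to 0.0730% in rhizome and 0.0351 to 0.0767% in leaf (5 higher and 2 lower of 13), and vessel markers 0.00986 to 0.0352% in rhizome and 0.00560 to 0.0546% in leaf (none of 2).

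Among the early tetrapyrrole genes 3 of 8 tested were lower in rhizome, with a median of -1.49 over the 8. Glutamyl-tRNA reductase (Unigene5885) makes the first committed step toward 5-aminolevulinate, and its scaled level was 5.57 and 1.48 in cut and uncut rhizome at a month and 4.73 and 0.94 at 4 days, against 10.2 and 10.6 in cut and uncut leaf at a month and 21.8 and 14.9 at 4 days. Every rhizome value lay below every leaf value (log2 -2.29 ± 0.51, adjusted p = 0.011), and the call was lost without the uncut 4-day pair (log2 -1.96). Glutamate-1-semialdehyde aminomutase (Unigene2703), which completes 5-aminolevulinate, stood at 1.35 and 0.616 in cut and uncut rhizome at a month and 1.96 and 1.88 at 4 days, against 4.33 and 2.11 in cut and uncut leaf at a month and 9.26 and 2.95 at 4 days. The rhizome values again lay below the leaf values, close to the threshold (log2 -1.67 ± 0.49, adjusted p = 0.0454). Its call did not hold without the cut 4-day pair (-1.33) or without the cut (-1.61) or the uncut (-1.56) month pair.

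Uroporphyrinogen decarboxylase (Unigene8205), which acts after the split toward siroheme, had scaled levels of 0.507 and 0.616 in cut and uncut rhizome at a month and 2.43 and 1.88 at 4 days, against 5.13 and 5.58 in cut and uncut leaf at a month and 10.1 and 16.5 at 4 days. It gave the clearest separation of these steps (log2 -2.81 ± 0.47, adjusted p = 0.00173). A second decarboxylase feature, Unigene3031, did not pass (log2 -1.31 ± 0.76, adjusted p = 0.319). Coproporphyrinogen-III oxidase (CL9.Contig2), the next enzyme, stood at 2.2 and 1.72 in cut and uncut rhizome at a month and 3.17 and 2.35 at 4 days, against 5.64 and 2.89 in cut and uncut leaf at a month and 7.87 and 5.23 at 4 days, and cut rhizome at 4 days lay above uncut leaf at a month (log2 -1.14 ± 0.43, adjusted p = 0.11). The shorter contig of that cluster, CL9.Contig1, gave log2 -1.07 ± 0.61, adjusted p = 0.309; contigs of a cluster may share reads.

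The feature annotated as glutamyl-tRNA reductase-binding protein (Unigene464), which in Arabidopsis stabilises that reductase, was at 0.507 and 1.23 in cut and uncut rhizome at a month and 0.743 and 3.29 at 4 days, against 2.01 and 1.26 in cut and uncut leaf at a month and 2.05 and 2.15 at 4 days. Rhizome and leaf overlapped, with uncut rhizome at 4 days the highest of the 8 libraries on 7 counts (log2 -0.66 ± 0.59, adjusted p = 0.548). A second feature annotated as glutamyl-tRNA reductase, Unigene1720, also overlapped (log2 -2.07 ± 0.89, adjusted p = 0.164). Uroporphyrinogen-III synthase (Unigene12021) closes the tetrapyrrole ring and was below the filter: it had counts of 0 and 2 in cut and uncut rhizome at a month and 1 and 1 at 4 days, against 1 and 4 in cut and uncut leaf at a month and 14 and 0 at 4 days.

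In the siroheme branch no feature passed for tissue. Uroporphyrinogen-III C-methyltransferase (CL1503.Contig2), its first enzyme, was at 1.18 and 3.2 in cut and uncut rhizome at a month and 2.84 and 7.05 at 4 days, against 2.11 and 6.74 in cut and uncut leaf at a month and 2.45 and 6.95 at 4 days. The rhizome range covered the leaf range (log2 -0.40 ± 0.44, adjusted p = 0.636). The second contig, CL1503.Contig1, was lower in rhizome in 4 of 4 pairs with overlapping values, and did not pass either (log2 -0.82 ± 0.52, adjusted p = 0.363). The SwissProt match of both contigs is weak and the Nr annotation leaves them uncharacterised.

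The magnesium branch held 6 of the 15 features lower in rhizome, out of 9 tested, with a median log2 ratio of -2.55. Its 12 features took 0.0180 to 0.0358% of the nuclear counts in rhizome and 0.0819 to 0.229% in leaf. The large subunit of magnesium chelatase, ChlH (Unigene1580), which binds the porphyrin that receives magnesium, had scaled levels of 1.86 and 0.862 in cut and uncut rhizome at a month and 3.58 and 3.29 at 4 days, against 14.5 and 7.79 in cut and uncut leaf at a month and 30.2 and 27.2 at 4 days. The rhizome libraries all lay under the leaf libraries (log2 -3.06 ± 0.43, adjusted p = 0.00044).

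The other chelatase subunits are the ATPase ChlI and its partner ChlD. ChlI (Unigene430) was at 1.52 and 1.23 in cut and uncut rhizome at a month and 0.945 and 6.58 at 4 days, against 4.53 and 2.45 in cut and uncut leaf at a month and 6.94 and 5.84 at 4 days, with uncut rhizome at 4 days the runner-up among the 8 libraries on 14 counts. ChlI did not pass (log2 -1.32 ± 0.54, adjusted p = 0.142), and neither did ChlD (Unigene9524), at 1.01 and 0.616 in cut and uncut rhizome at a month and 0.878 and 0 at 4 days, against 1.11 and 0.749 in cut and uncut leaf at a month and 3.64 and 2.27 at 4 days. In ChlD cut rhizome at either time exceeded uncut leaf at a month (log2 -1.29 ± 0.70, adjusted p = 0.284). That ChlH differed more than ChlI or ChlD was not tested.

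The cyclase Unigene6002, which closes the fifth ring of the chlorophyll precursor, had scaled levels of 5.57 and 4.68 in cut and uncut rhizome at a month and 8.64 and 1.88 at 4 days, against 19.3 and 26.5 in cut and uncut leaf at a month and 41.4 and 33.1 at 4 days. Leaf was higher in every library (log2 -2.55 ± 0.46, adjusted p = 0.00297). Protochlorophyllide reductase, the light-dependent enzyme of the greening step, was covered by 2 contigs of a cluster. The first, CL902.Contig1, stood at 0.676 and 0.493 in cut and uncut rhizome at a month and 0.81 and 0.94 at 4 days, against 5.84 and 5.41 in cut and uncut leaf at a month and 12.4 and 9.9 at 4 days, without overlap (log2 -3.51 ± 0.49, adjusted p = 0.000432). The second, CL902.Contig2, followed another pattern, given with the cutting comparison, and did not pass for tissue (log2 -1.87 ± 0.72, adjusted p = 0.124).

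Divinyl chlorophyllide reductase (Unigene10950), which reduces the vinyl side group of the precursor, was under the filter, with counts of 5 and 1 in cut and uncut rhizome at a month and 1 and 1 at 4 days, against 1 and 7 in cut and uncut leaf at a month and 8 and 18 at 4 days. Geranylgeranyl reductase (Unigene8244), which saturates the phytol tail, was at 1.52 and 0.739 in cut and uncut rhizome at a month and 1.55 and 3.76 at 4 days, against 7.35 and 6.98 in cut and uncut leaf at a month and 10.3 and 33.6 at 4 days. Uncut leaf at 4 days was the highest library, and all rhizome values lay below all leaf values (log2 -2.83 ± 0.44, adjusted p = 0.00102). Chlorophyll synthase (Unigene8393), which joins the tail to chlorophyllide, had 1.18 and 1.11 in cut and uncut rhizome at a month and 1.28 and 0 at 4 days, against 5.94 and 4.02 in cut and uncut leaf at a month and 4.5 and 3.57 at 4 days. The tissues did not overlap (log2 -2.22 ± 0.54, adjusted p = 0.0186), and the call was lost without the cut month pair (log2 -2.17).

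Chlorophyllide a oxygenase (Unigene5796), which makes chlorophyll b, showed the largest fall of the 15, with scaled levels of 0.676 and 0.246 in cut and uncut rhizome at a month and 0.405 and 0 at 4 days, against 2.92 and 4.66 in cut and uncut leaf at a month and 5.03 and 12.6 at 4 days. Its rhizome counts were 4 and 2 in cut and uncut explants at a month and 6 and 0 at 4 days, against 29 and 137 in leaf at a month and 76 and 205 at 4 days (log2 -3.70 ± 0.63, adjusted p = 0.00191). Without the cut month pair the ratio was -4.29. With so few rhizome counts the size of the fall is less certain than its direction.

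In chlorophyll breakdown 1 of 3 tested features was lower in rhizome. Pheophorbide a oxygenase (Unigene4640), which opens the ring of the degraded pigment, was at 1.01 and 1.6 in cut and uncut rhizome at a month and 2.36 and 1.41 at 4 days, against 15 and 22.6 in cut and uncut leaf at a month and 4.7 and 5.04 at 4 days. Uncut leaf at a month was the highest library and the tissues did not overlap (log2 -2.65 ± 0.58, adjusted p = 0.0106). The call was lost without the uncut 4-day pair (log2 -2.84) and without the uncut month pair (-2.08), and the ratio was -3.31 without the cut 4-day pair. Chlorophyll(ide) b reductase (Unigene295), which acts on the way from chlorophyll b back to a, stood at 1.69 and 0.493 in cut and uncut rhizome at a month and 2.9 and 2.82 at 4 days, against 4.03 and 5.72 in cut and uncut leaf at a month and 7.67 and 2.83 at 4 days, overlapped and did not pass (log2 -1.52 ± 0.55, adjusted p = 0.0992). Another feature of this reductase, Unigene438, did not overlap between the tissues and did not pass either. PTC52 (Unigene8509), of the same family as pheophorbide a oxygenase, was at 0.338 and 0.246 in cut and uncut rhizome at a month and 0.675 and 0.47 at 4 days, against 3.62 and 2.99 in cut and uncut leaf at a month and 2.12 and 1.48 at 4 days without overlap (log2 -2.55 ± 0.64, adjusted p = 0.0224). Its call did not hold without the uncut 4-day (-2.67), the cut month (-2.23) or the uncut month pair (-2.11).

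**Figure D2:**
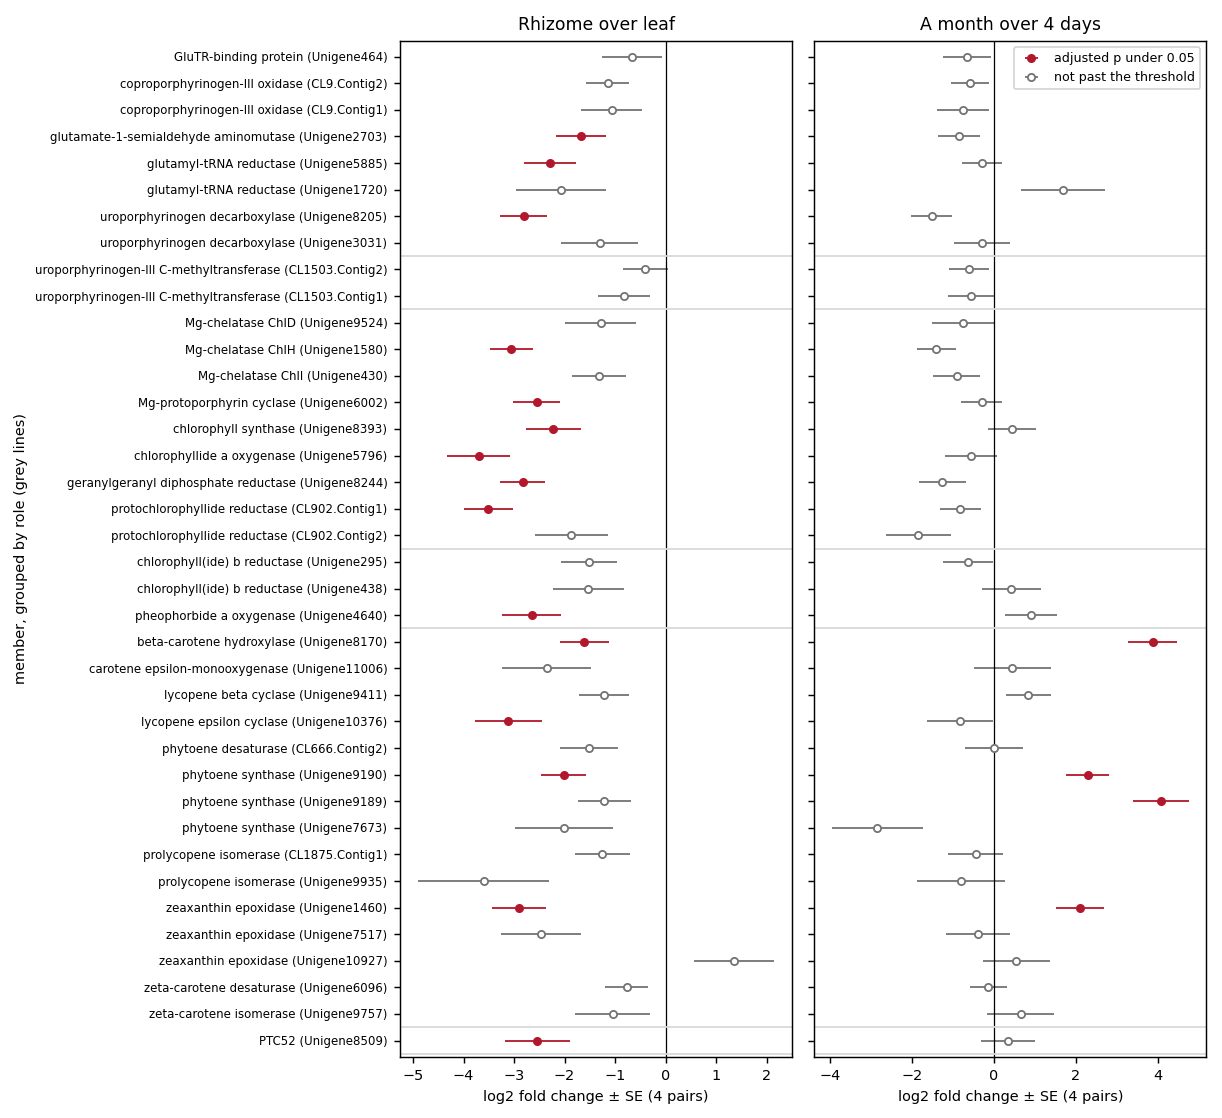
Log2 fold change with its standard error from edgeR over 4 pairs for each of the 38 tested features, for rhizome over leaf (left) and a month over 4 days (right). Filled points passed an adjusted p of 0.05: 15 for tissue, all below 0, and 4 for time, all above 0 and all in carotenoid synthesis.

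Of the carotenoid features 4 of 15 tested were lower in rhizome, with a median of -1.61. Phytoene synthase (Unigene9190), the first committed enzyme of the route, had scaled levels of 12.8 and 11.3 in cut and uncut rhizome at a month and 4.19 and 0.47 at 4 days, against 49 and 37 in cut and uncut leaf at a month and 12.6 and 7.99 at 4 days. Each rhizome library lay below its leaf partner, although the month rhizome values reached the range of leaf at 4 days (log2 -2.02 ± 0.45, adjusted p = 0.0113). Lycopene epsilon cyclase (Unigene10376), which leads to lutein, was at 0 and 0.616 in cut and uncut rhizome at a month and 1.89 and 0 at 4 days, against 3.72 and 4.53 in cut and uncut leaf at a month and 7.34 and 4.49 at 4 days. The rhizome values, 2 of them 0, all lay below the leaf values (log2 -3.12 ± 0.66, adjusted p = 0.00871). The call was lost without the uncut 4-day pair (-2.85), and the ratio was -4.01 without the cut 4-day pair.

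Zeaxanthin epoxidase (Unigene1460), which makes violaxanthin, stood at 7.09 and 2.22 in cut and uncut rhizome at a month and 0.81 and 0 at 4 days, against 25 and 15.1 in cut and uncut leaf at a month and 9.52 and 5.72 at 4 days. Rhizome was lower in all 4 pairs (log2 -2.91 ± 0.54, adjusted p = 0.00323). Beta-carotene hydroxylase (Unigene8170), which forms zeaxanthin and which the Nr annotation calls a fatty acid hydroxylase, was at 10.8 and 6.9 in cut and uncut rhizome at a month and 0.338 and 1.41 at 4 days, against 47.4 and 15.8 in cut and uncut leaf at a month and 1.85 and 1.72 at 4 days. It passed by a small margin (log2 -1.61 ± 0.48, adjusted p = 0.0481), and no fit that left out 1 pair kept the call (-1.86 to -1.29).

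The middle of the route did not pass. Phytoene desaturase (CL666.Contig2), the first desaturation enzyme, was at 1.35 and 3.94 in cut and uncut rhizome at a month and 3.38 and 0 at 4 days, against 5.54 and 4.9 in cut and uncut leaf at a month and 7.47 and 5.59 at 4 days (log2 -1.52 ± 0.57, adjusted p = 0.113). Its rhizome and leaf values did not overlap, with 1 rhizome library at 0. Zeta-carotene isomerase (Unigene9757), which acts between the desaturases, had 0.676 and 0.739 in cut and uncut rhizome at a month and 0.27 and 0 at 4 days, against 1.21 and 0.885 in cut and uncut leaf at a month and 0.529 and 1.72 at 4 days (log2 -1.05 ± 0.75, adjusted p = 0.432). Zeta-carotene desaturase (Unigene6096) was the carotenoid feature closest between the tissues, at 3.38 and 4.31 in cut and uncut rhizome at a month and 3.38 and 6.11 at 4 days, against 6.74 and 7.01 in cut and uncut leaf at a month and 8.86 and 5.66 at 4 days (log2 -0.77 ± 0.42, adjusted p = 0.294). The isomerase overlapped through both month rhizome libraries and the desaturase through uncut rhizome at 4 days.

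Prolycopene isomerase (CL1875.Contig1), which yields all-trans lycopene, was at 0.338 and 1.85 in cut and uncut rhizome at a month and 3.38 and 0.94 at 4 days, against 3.22 and 3.54 in cut and uncut leaf at a month and 4.56 and 2.46 at 4 days (log2 -1.26 ± 0.54, adjusted p = 0.17). Lycopene beta cyclase (Unigene9411), on the way to beta-carotene, stood at 1.86 and 2.59 in cut and uncut rhizome at a month and 0.54 and 2.35 at 4 days, against 6.34 and 3.57 in cut and uncut leaf at a month and 2.45 and 3.26 at 4 days (log2 -1.22 ± 0.50, adjusted p = 0.147). Carotene epsilon-monooxygenase (Unigene11006), the cytochrome P450 that completes lutein, was at 0 and 0.37 in cut and uncut rhizome at a month and 0.27 and 0 at 4 days, against 0.906 and 1.5 in cut and uncut leaf at a month and 0.86 and 0.553 at 4 days (log2 -2.36 ± 0.87, adjusted p = 0.108). The first of these overlapped through cut rhizome at 4 days and the second through uncut rhizome at a month, while the third did not overlap on 82 counts in all. A zeaxanthin epoxidase fragment, Unigene10927, was the only tested feature with a positive ratio (log2 1.36 ± 0.79, adjusted p = 0.323). The D27 feature with the higher FPKM, Unigene14602, had counts of 0 and 0 in cut and uncut rhizome at a month and 0 and 0 at 4 days, against 2 and 0 in cut and uncut leaf at a month and 0 and 6 at 4 days.

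The 15 features lower in rhizome held between 195 and 2338 counts in all (median 1000), and the 23 tested ones that did not pass held between 36 and 617 (median 157). At that depth a missing call says little. Of the 15 calls, 8 remained in each of the 4 fits that left out a pair: uroporphyrinogen decarboxylase Unigene8205, ChlH, the cyclase, CL902.Contig1, geranylgeranyl reductase, chlorophyllide a oxygenase, phytoene synthase Unigene9190 and zeaxanthin epoxidase Unigene1460. Each of the 4 pairs was also taken alone, with no p-value. A feature was counted where the higher library had 50 counts or more and the scaled ratio was 4-fold or more. For this rule a library with fewer than 3 counts was taken as having 3. Rhizome was lower for 8 of 16 features with enough counts in the cut month pair, 12 of 26 in the uncut month pair, 12 of 22 in the cut 4-day pair and 9 of 19 in the uncut 4-day pair, and higher for none. With 20 counts as the minimum, phytoene desaturase CL666.Contig1 was higher in the cut 4-day pair, with 22 counts in rhizome and 0 in leaf. Of all features with enough counts, 17.3% were lower and 5.56% higher in the cut month pair, 18.1 and 3.67% in the uncut month pair, 9.69 and 2.44% in the cut 4-day pair and 17.8 and 2.53% in the uncut 4-day pair.

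Read within each time, 15 features were lower in rhizome at a month and 11 at 4 days, against 7.29 and 4.09% of all features. None of the 38 was higher at either time, against 5.60% of all features at a month and 1.16% at 4 days. Each of these tests rests on 2 pairs: without the cut or without the uncut month pair 0 features were called at a month (208 and 55 of all features, against 1506), and 8 and 7 at 4 days. On log2(FPKM + 1) 4 were called at a month and 2 at 4 days, against 5.52 and 2.15% of all features. The difference between the times passed for 0 of the 38 features by edgeR (1.0% of all features) and for 0 by DESeq2. At an unadjusted p under 0.05 by edgeR were 2 of the 38 and 896 of all features.

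Genes next to these on the pathway were also compared between the tissues. Of 48 such features, taken by the same kind of text search, 30 were tested and 8 were lower in rhizome, with none higher and a median of -1.51. Over all features tested 6.93% were lower and 2.07% higher, with a median of -0.14. In the tetrapyrrole route delta-aminolevulinic acid dehydratase (CL622.Contig1) was lower (log2 -2.83 ± 0.70, adjusted p = 0.0209). Another contig of that cluster, CL622.Contig2, did not pass (log2 -0.59 ± 0.45, adjusted p = 0.465). Among breakdown genes STAY-GREEN (CL163.Contig4), which removes magnesium from chlorophyll, was lower (log2 -4.59 ± 0.63, adjusted p = 0.000398), as was pheophytinase (Unigene3674; log2 -2.62 ± 0.56, adjusted p = 0.00921). The STAY-GREEN contig CL163.Contig2 did not pass (log2 -5.78 ± 1.78, adjusted p = 0.0655). Nor did the other tested pheophytinase features, Unigene613 (log2 -1.56, adjusted p = 0.296), Unigene4829 (-1.48, 0.243) and Unigene3106 (-0.90, 0.484). The xanthophyll cycle enzyme violaxanthin de-epoxidase (Unigene5170) was lower as well (log2 -2.60 ± 0.57, adjusted p = 0.0108). So was NCED3 (Unigene10574), a dioxygenase that cuts xanthophylls toward abscisic acid (log2 -4.06 ± 0.71, adjusted p = 0.00231). The other 3 were STAY-GREEN LIKE (Unigene10693, log2 -4.37), NCED1 (Unigene3940, -3.25) and a carotenoid 9,10-cleavage dioxygenase (Unigene5882, -1.64).

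**Figure D3:**
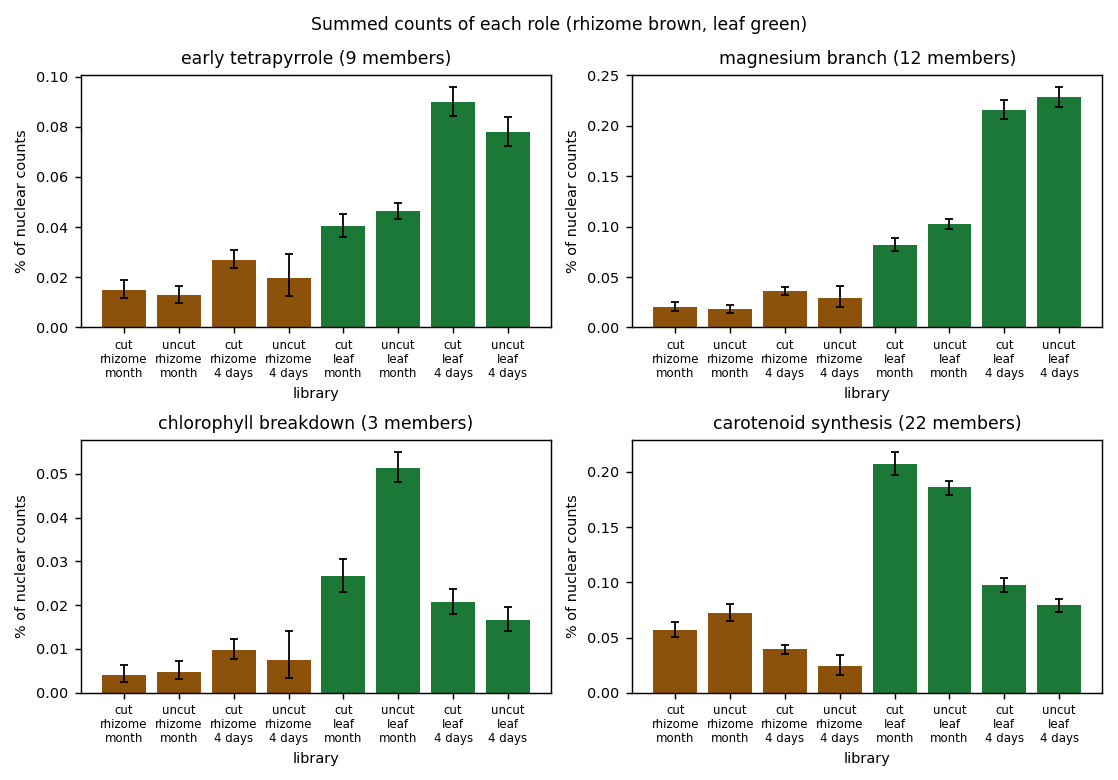
Summed counts of the early tetrapyrrole, magnesium branch, chlorophyll breakdown and carotenoid features (4 panels) as a percentage of nuclear counts in each library, with exact 95% intervals for counting error only. Rhizome bars lie below the leaf bars of the same time and cutting in all 4 panels. Between leaf libraries the magnesium branch is lower and carotenoid synthesis is higher at a month than at 4 days.

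The second comparison sets a month against 4 days. Of the 38 tested features 4 were higher at a month and none was lower. At an unadjusted p under 0.05 were 9 of the 38 and 2231 of the 11682 features tested. The median of the 38 log2 ratios of a month over 4 days was -0.42, against 0.02 over all features tested. Of the 38 ratios 24 were negative, against 49% of those of all features. Over all features tested 8.76% were called, 7.81% higher and 0.95% lower at a month (912 and 111 features, against 849 and 228 with the length offset), so the share of members called is near that of all features. The 4 features were of carotenoid synthesis. Of its 15 tested members 9 had a positive and 6 a negative log2 ratio of a month over 4 days (-2.85 to 4.08), with a median of 0.45, against 0.02 over all features tested. That this role differs from the others was not tested.

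Phytoene synthase Unigene9189, a shorter feature than Unigene9190, had scaled levels of 4.9 and 5.67 in cut and uncut rhizome and 8.35 and 11.3 in cut and uncut leaf at a month, against 0.135 and 0 in cut and uncut rhizome and 0.331 and 1.91 in cut and uncut leaf at 4 days. The month values all lay above the 4-day values (log2 4.08 ± 0.68, adjusted p = 0.00272), and the ratio was 5.04 without the uncut leaf pair. Phytoene synthase Unigene9190 was at 12.8 and 11.3 in cut and uncut rhizome and 49 and 37 in cut and uncut leaf at a month, against 4.19 and 0.47 in cut and uncut rhizome and 12.6 and 7.99 in cut and uncut leaf at 4 days. Each month library lay above its 4-day partner, while month rhizome and 4-day leaf overlapped (log2 2.29 ± 0.53, adjusted p = 0.0174), and the call was lost without the uncut leaf pair (2.37).

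Beta-carotene hydroxylase Unigene8170 was at 10.8 and 6.9 in cut and uncut rhizome and 47.4 and 15.8 in cut and uncut leaf at a month, against 0.338 and 1.41 in cut and uncut rhizome and 1.85 and 1.72 in cut and uncut leaf at 4 days. The times did not overlap (log2 3.88 ± 0.61, adjusted p = 0.00202). Zeaxanthin epoxidase Unigene1460 was at 7.09 and 2.22 in cut and uncut rhizome and 25 and 15.1 in cut and uncut leaf at a month, against 0.81 and 0 in cut and uncut rhizome and 9.52 and 5.72 in cut and uncut leaf at 4 days, with overlap between month rhizome and 4-day leaf. It was close to the threshold (log2 2.11 ± 0.59, adjusted p = 0.0435) and did not hold without the uncut leaf (2.52), the cut rhizome (1.71) or the uncut rhizome pair (1.80). Of the other tested zeaxanthin epoxidase features, Unigene7517 was higher at a month in 1 of 4 pairs and Unigene10927 in 2, and neither passed. Non-overlap between the times with the month higher was seen for 2 of the 38 features and for 10.2% of all features tested.

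**Figure D4:**
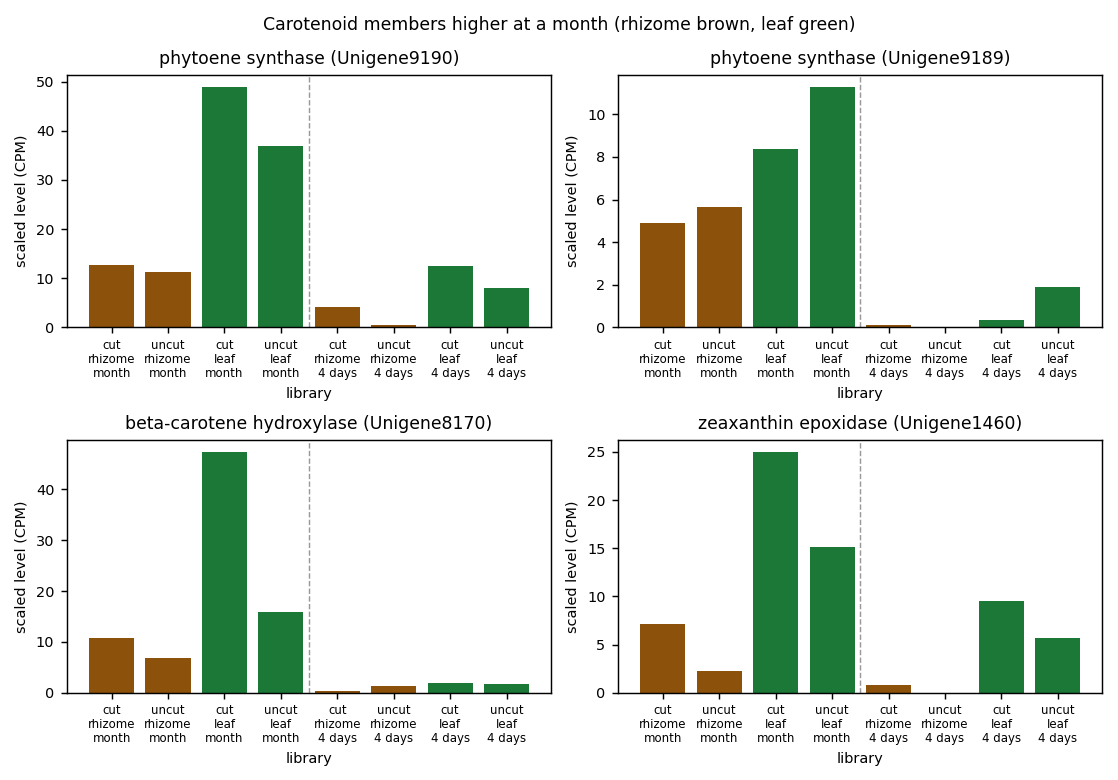
Scaled level (CPM, linear axes from 0) of the 4 carotenoid features higher at a month, in the 4 month libraries (left of the dashed line) and the 4 libraries at 4 days (right), with rhizome in brown and leaf in green. For Unigene9189 and Unigene8170 every month bar stands above every 4-day bar, and for Unigene9190 and Unigene1460 month rhizome reaches the range of leaf at 4 days.

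A further phytoene synthase feature had a ratio of the opposite sign. Unigene7673 had scaled levels of 0 and 0.246 in cut and uncut rhizome and 0 and 0.34 in cut and uncut leaf at a month, against 0.405 and 0 in cut and uncut rhizome and 1.98 and 1.91 in cut and uncut leaf at 4 days, with 4-day leaf the highest, and did not pass (log2 -2.85 ± 1.11, adjusted p = 0.168). Its share of the counts of Unigene7673 and Unigene9190 together was 0% (95% interval 0 to 0.755%) and 0.912% (0.438 to 1.67%) in cut and uncut leaf at a month, against 13.6% (9.35 to 18.8%) and 19.3% (13.5 to 26.2%) at 4 days. These exact Clopper-Pearson intervals, like all intervals of shares and ratios here, cover counting error only. In leaf the intervals of the times do not meet, and rhizome held 8 counts of this feature in all, too few for a comparison.

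Carotenoid steps between phytoene synthase and the hydroxylase stayed below the threshold for time. Phytoene desaturase CL666.Contig2 gave log2 0.01 ± 0.71, adjusted p = 0.997, zeta-carotene desaturase Unigene6096 gave log2 -0.14 ± 0.45, adjusted p = 0.924 and prolycopene isomerase CL1875.Contig1 gave log2 -0.45 ± 0.68, adjusted p = 0.808. The cyclases did not pass either: lycopene beta cyclase Unigene9411 gave log2 0.84 ± 0.54, adjusted p = 0.459 and lycopene epsilon cyclase Unigene10376 gave log2 -0.83 ± 0.81, adjusted p = 0.671.

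In the magnesium branch 0 of 9 tested features passed for time by edgeR, and 8 of the 9 log2 ratios were negative, with a median of -0.82. ChlH Unigene1580 came closest to the threshold (log2 -1.41 ± 0.47, adjusted p = 0.0972). With DESeq2 it passed, at log2 -1.51 and an adjusted p of 0.00995. Geranylgeranyl reductase Unigene8244 gave log2 -1.26 ± 0.56, adjusted p = 0.242, and chlorophyll synthase Unigene8393 was the only one of the 9 with a positive ratio (log2 0.44 ± 0.59, adjusted p = 0.78). Among the early steps uroporphyrinogen decarboxylase Unigene8205 lay on the same side as ChlH by edgeR (log2 -1.52 ± 0.50, adjusted p = 0.0876) and passed with DESeq2 (log2 -1.62, adjusted p = 0.0179). The leaf mesophyll markers gave a median of -1.48 at a month over 4 days, and 9 of 31 tested were lower; their part in these values was not tested.

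The share of carotenoid synthesis against the magnesium branch was compared within each library. Carotenoid synthesis took 71.7% (69.8 to 73.6%) and 64.3% (63.0 to 65.7%) of the counts of carotenoid and magnesium branch features together in cut and uncut leaf at a month, against 31.0% (29.4 to 32.7%) and 25.7% (24.1 to 27.3%) at 4 days. In cut and uncut rhizome the share was 73.4% (68.5 to 77.8%) and 80.1% (76.1 to 83.8%) at a month, against 52.3% (48.4 to 56.3%) and 44.6% (32.3 to 57.5%) at 4 days. All 4 pairs were higher at a month, by more than the counting intervals. This rests in part on the 4 features called for time: without them the share was 32.6% (29.6 to 35.7%) and 32.1% (30.3 to 33.9%) in cut and uncut leaf at a month, against 21.6% (20 to 23.2%) and 17.7% (16.2 to 19.2%) at 4 days. In rhizome without them the pairs went opposite ways, with 36.6% (29.0 to 44.8%) and 61.1% (54.3 to 67.6%) in cut and uncut rhizome at a month, against 45.5% (41.3 to 49.7%) and 41.0% (28.6 to 54.3%) at 4 days. An exact permutation test over 4 pairs cannot give a p under 0.125, so none is printed. Of the counts behind these shares, not adjusted for length, phytoene synthase Unigene9190 held 2126 over the 8 libraries and beta-carotene hydroxylase Unigene8170 held 1118.

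Chlorophyll breakdown, set against the magnesium branch in the same way, took 24.5% (21.6 to 27.6%) and 33.3% (31.5 to 35.2%) in cut and uncut leaf at a month, against 8.73% (7.61 to 9.95%) and 6.80% (5.80 to 7.90%) at 4 days. In rhizome it took 16.4% (10.2 to 24.4%) and 21.1% (13.9 to 30.0%) in cut and uncut explants at a month, against 21.5% (17.6 to 26.0%) and 20% (9.58 to 34.6%) at 4 days. The share was higher at a month in both leaf pairs, and in rhizome the times were not distinguishable at this depth. Pheophorbide a oxygenase Unigene4640, the largest of the 3 features, did not pass for time (log2 0.91 ± 0.64, adjusted p = 0.519).

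Among the neighbouring genes of the pathway 2 of 30 tested were higher at a month and 1 was lower. Over all features tested 7.81% were higher and 0.95% lower, so the number called is near the share of all features. NCED3 (Unigene10574) was higher (log2 5.96 ± 0.89, adjusted p = 0.00157), as was ferrochelatase Unigene3669, which inserts iron to make heme (log2 2.45 ± 0.50, adjusted p = 0.00838). Ferrochelatase Unigene1503 (log2 -0.465 ± 0.678, adjusted p = 0.8) and NCED1 Unigene3940 (log2 -1.10 ± 0.89, adjusted p = 0.583) had negative ratios and did not pass. STAY-GREEN LIKE (Unigene10693), a relative of STAY-GREEN, was lower (log2 -3.04 ± 0.79, adjusted p = 0.0345).

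The third comparison, cut against uncut explants, is the one the series was built on. None of the 38 tested features passed by edgeR (0.00856% of all features, 1 of 11682), and 4 had an unadjusted p under 0.05 (967 of all features). DESeq2 called 1 of the 38 and 70 of all features. The median log2 ratio of cut over uncut was 0.25 over the 38, against 0.09 over all features tested. The cut library was the higher in all 4 pairs for 9 of the 38 (10% of all features) and the lower for 2 (5.74%), and these 2 were the siroheme contigs.

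The siroheme contigs had the same order of cut and uncut libraries. CL1503.Contig2 had scaled levels of 2.45 and 2.11 in cut leaf at 4 days and a month and 2.84 and 1.18 in cut rhizome, against 6.95 and 6.74 in uncut leaf at 4 days and a month and 7.05 and 3.2 in uncut rhizome. All 4 cut libraries lay below all 4 uncut libraries, yet the difference did not pass with edgeR (log2 -1.48 ± 0.49, adjusted p = 0.394). DESeq2 called this contig, with log2 -1.54 and an adjusted p of 0.0442. CL1503.Contig1 was at 2.18 and 2.21 in cut leaf at 4 days and a month and 1.76 and 0.338 in cut rhizome, against 4.18 and 3.78 in uncut leaf at 4 days and a month and 3.29 and 2.34 in uncut rhizome, again without overlap, and it did not pass (log2 -1.19 ± 0.56, adjusted p = 0.597). These were the 2 of the 38 features whose cut libraries lay wholly below the uncut ones, against 0.976% of all features. The contigs belong to a cluster and may share reads, so they are not independent of each other.

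Protochlorophyllide reductase CL902.Contig2 had the largest positive ratio of cut over uncut. Its scaled levels were 24.3 and 1.61 in cut leaf at 4 days and a month and 2.3 and 1.52 in cut rhizome, against 2.95 and 0.647 in uncut leaf at 4 days and a month and 0 and 0.493 in uncut rhizome. Cut leaf at 4 days stood far above the other 7 libraries, and each cut library exceeded its uncut partner. Over the 4 pairs this did not pass (log2 2.29 ± 0.62, adjusted p = 0.298). In the fit with a separate cutting effect at each time it was the single one of the 38 features called at 4 days (log2 3.24 ± 0.82, adjusted p = 0.00296), against 6.99% of all features, and none was called at a month (0.291%). The count over all features was 816 in that fit, against 408 with DESeq2, 468 on log2(FPKM + 1) and 277 and 273 without the leaf or the rhizome month pair. The call of CL902.Contig2 at 4 days was lost without the leaf 4-day pair (log2 7.88, adjusted p = 0.121) and without the leaf month pair (3.13, 0.0654). That the effect differed between a month and 4 days did not pass (log2 -1.82 ± 1.12, adjusted p = 0.556). By edgeR 0 of the 38 features passed that test (1.96% of all features). At an unadjusted p under 0.05 were 1 of the 38 and 1392 of all features.

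Within the reductase cluster the share of CL902.Contig2 was 66.2% (62.1 to 70.1%) in cut leaf at 4 days, against 23.0% (17.4 to 29.3%) in uncut leaf. In rhizome at 4 days it was 73.9% (58.9 to 85.7%) of 46 counts in cut explants, and 0 of 2 counts in uncut explants. At a month it was 21.6% (12.9 to 32.7%) in cut leaf, against 10.7% (6.55 to 16.2%) in uncut leaf. The intervals of cut and uncut leaf are apart at 4 days and overlap at a month. The partner contig CL902.Contig1 had scaled levels of 12.4 and 5.84 in cut leaf at 4 days and a month and 0.81 and 0.676 in cut rhizome, against 9.9 and 5.41 in uncut leaf at 4 days and a month and 0.94 and 0.493 in uncut rhizome, with cut and uncut libraries side by side (log2 0.19 ± 0.52, adjusted p = 0.972).

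**Figure D5:**
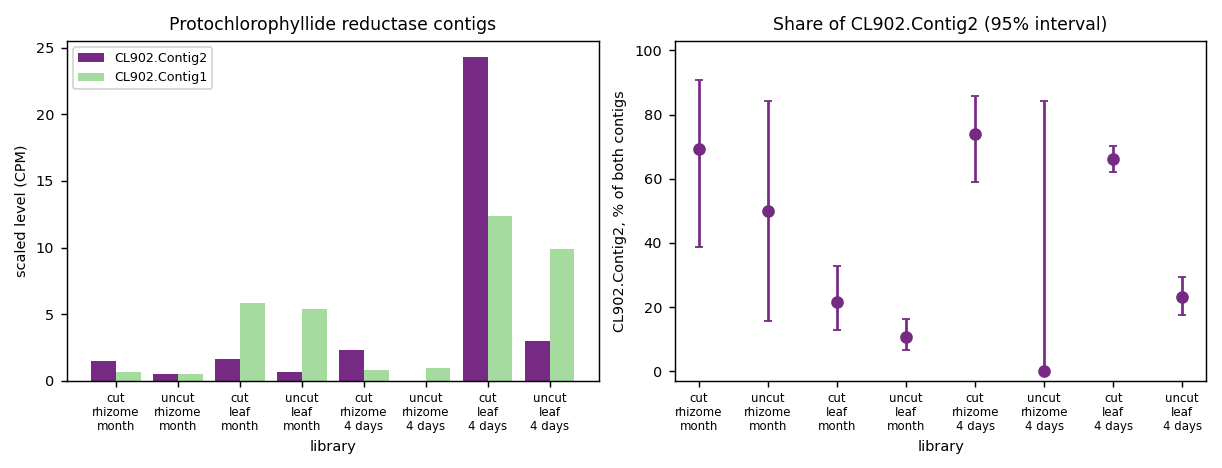
Left, scaled level (CPM) of the protochlorophyllide reductase contigs CL902.Contig2 (purple) and CL902.Contig1 (green) in each library. Right, CL902.Contig2 as a percentage of the counts of both contigs with exact 95% intervals for counting error only; it is 66.2% in cut leaf and 23.0% in uncut leaf at 4 days, and the rhizome libraries other than cut rhizome at 4 days hold 2 to 13 counts.

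The cut and uncut pairs were taken alone by the same rule of 50 counts and 4-fold, with fewer than 3 counts again taken as 3. In leaf at 4 days 1 of 25 features with enough counts was higher in cut explants, CL902.Contig2, with 368 counts in cut and 48 in uncut leaf, a scaled ratio of 8.25 (95% interval 6.09 to 11.4); the background was 11.1% higher and 8.44% lower. In rhizome at 4 days 1 of 7 was higher, the cyclase Unigene6002, with 128 counts in cut rhizome against 4 in uncut rhizome, and a ratio of 4.60 (1.75 to 17.1), against a background of 16.0% higher and 2.29% lower. None was lower in either pair at 50 counts, while with 20 counts as the minimum phytoene synthase Unigene9189 was lower in leaf at 4 days, with 5 counts in cut and 31 in uncut leaf. At a month none of 26 passed in leaf (background 3.68%) and none of 2 in rhizome (5.01%).

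The cutting effect was also compared between rhizome and leaf, and the difference passed for 0 of the 38 features and for 0 of 11682 features by edgeR, with 0 and 199 at an unadjusted p under 0.05. DESeq2 called 1 feature of all and none of the 38. An edgeR fit with all differences of effects in 1 model called 17 of the 11682 and none of the 38. Of the 30 neighbouring genes tested none passed for cutting over the 4 pairs. At 4 days 1 of the 30 was called, a share under the 6.99% of all features: porphobilinogen deaminase (Unigene1738), which builds the linear tetrapyrrole, was higher in cut explants (log2 2.94 ± 0.80, adjusted p = 0.00693).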

How the data were processed

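RNA-seq of leaf and rhizome of cut and uncut sweet flag explants at 4 days and a month gave 8 libraries. Per the file headers, the deposited tables hold for each assembled feature an expected count, an FPKM value, a length and annotation text. The authors used Bowtie2, and RSEM, which estimates expected counts and FPKM, per the submitters' processing notes; versions are not given in them. Reads were thus shared between like contigs by estimation. Where a table lacked a feature, its count was set to 0.

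Expected counts were rounded to whole numbers and tested in R 4.3.3 with edgeR 4.0.16 (filterByExpr with the design, TMM scaling over all features, robust quasi-likelihood F tests). Tissue, time and cutting were each tested over 4 matched pairs, each a block of the other 2 factors (3 residual degrees of freedom), and differences of effects with 2. The pairing comes from the labels' combinations, not from shared plants. P-values were adjusted by Benjamini-Hochberg over all 11682 features tested, and called under 0.05. The standard error printed beside a log2 fold change is that change, unsigned, divided by the root of its F value. Tests within a time rest on 2 pairs, and edgeR shrinks the spread of a feature toward a common value.

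Of the 24636 features, 35 were classed as ribosomal RNA and 218 as organelle features from their annotation, and the other 24383 are called nuclear. Alternatives were DESeq2 1.42.0, limma 3.58.1 on log2(FPKM + 1) and log2(FPKM + 0.1), no low-count filter, no ribosomal RNA and organelle features, an additive model, a length offset, contigs with 1 description summed, and each pair left out. For the differences of effects, an edgeR fit with all of them in 1 model was a further alternative. Leaving out pairs for the differences of effects and for effects within a time, the carotenoid share without the features called for time, and nuclear shares without Unigene19161 were added after seeing the data. Named with all 8 values were the members called for a factor and, for each enzyme step, the member with the highest mean FPKM; Unigene7673, CL1503.Contig1 and CL902.Contig2 (by cutting) were chosen after their values were seen. The members, the marker and neighbour lists and these tests were chosen with earlier results of these data known.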

Additional observations from a re-analysis of the deposited data

How the results depend on the processing

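For tissue the number of members called was 31 with log2(FPKM + 1) and 26 with log2(FPKM + 0.1), against 15 with edgeR. On these FPKM scales the median of all features was -0.73 and -1.30, against -0.14 with edgeR, and the members' medians of -1.62 and -2.63 stand against that shift. The other planned fits called 13 to 19 members, all lower, and 10 to 13 with a pair left out. Without the replicate block, in the additive model, 13 members were called for tissue, 5 for time and 0 for cutting; aminomutase Unigene2703 and hydroxylase Unigene8170 lost their tissue calls there and with a length offset. The offset moved the median of all features to 0.11 for tissue and -0.21 for time, with members' medians of -1.54 and -0.49. For time the count was 2 with like contigs summed, against 4, and 2 to 4 with a pair left out. Zeaxanthin epoxidase Unigene1460 lost its time call on both FPKM scales (1.12 and 1.94) and with like contigs summed (1.48). For cutting DESeq2 called 1 member, against 0. Leaving out a pair gave 0 to 2 members for tissue by time and for cutting by time, and 0 to 4 for cutting at 4 days, where log2(FPKM + 1) gave 0 against 1. Time ratios near 0 changed sign: CL666.Contig2 (-0.01 with DESeq2 and with a length offset, -0.05 with log2(FPKM + 1), -0.02 without ribosomal RNA and organelle features, -0.10 with contigs summed, -0.69 to 0.44 with a pair left out), CL1875.Contig1 (-0.86 to 0.19 with a pair left out), Unigene5796 (-0.92 to 0.07) and Unigene8509 (-0.01 to 0.61). The cause of these changes was not tested, other than that fewer pairs or features enter some fits. Over all features, tissue called 1051 by edgeR, 2582 and 2270 on the FPKM scales, 1608 without the low-count filter and 444 to 992 with a pair left out; cutting called 1, 70 with DESeq2, 113 without the filter and 0 to 274 with a pair left out. Within a time, tissue called 2 members at 4 days and 4 at a month on log2(FPKM + 1), against 11 and 15 with edgeR, and 7 to 12 and 0 to 18 with a pair left out; the 0 came without either month pair.

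Pair by pair at 2-fold, cutting passed 7 members in leaf at 4 days (4 higher and 3 lower of 25, against 26.7 and 22.4% of all features), 3 in leaf at a month (2 higher and 1 lower of 26, against 6.81 and 11.5%) and 5 in rhizome at 4 days (all higher, of 7, against 50.3%). Tissue passed 20 of 22 in the cut 4-day pair (18.1% of all features), 14 of 19 in the uncut 4-day pair (53.5%) and 13 of 16 in the cut month pair (37.7%), all lower. At 20 counts cutting passed 2 of 34 in leaf at 4 days (1 higher and 1 lower, against 10.6 and 8.99%), and tissue passed 13 of 26 in the cut month pair (all lower, against 14.7%) and 17 of 33 in the cut 4-day pair (1 higher and 16 lower, against 2.79 and 8.05%). Depth limits the values of uncut rhizome at 4 days, which held 121 counts over the 51 features.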
